A study of Mus musculus with 17 samples.

Results

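Neuropeptides are short signalling peptides cut from larger precursors, and most of them act on receptors that couple to G proteins and cyclic AMP. Innate lymphoid cells (ILCs) live in tissues and, unlike T and B cells, rearrange no antigen receptor. They are known both to carry neuropeptide receptors and to make some of the peptides, and group 2 ILCs (ILC2s) are the best described case. Here 7 genes of this system were followed in mouse skin ILCs, of 54446 genes in the bulk count files. They were chosen by name: the precursor genes Calca and Penk, the receptor genes Nmur1, Vipr2 and Calcrl, and the receptor partner genes Ramp1 and Ramp3. Calca encodes calcitonin and, by alternative splicing, the peptide CGRP. Penk encodes proenkephalin, the source of the enkephalins, which act on opioid receptors. Calcrl is a receptor that needs a small membrane partner: with RAMP1 it forms the CGRP receptor, and with RAMP2 or RAMP3 it forms receptors for adrenomedullin. Nmur1 encodes the receptor through which neuromedin U activates ILC2s, and Vipr2 a receptor for vasoactive intestinal peptide.

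The study sorted live CD90-positive skin cells that lacked lineage markers and the γδ T cell receptor, all from mice on a C57BL/6 background, and made 14 bulk and 3 single-cell RNA-seq libraries. In 10 of the bulk libraries the donors carried a fate-map (fm) reporter, a permanent mark that a cell keeps whatever it expresses later. Marked and unmarked cells came from intact mice (fm_pos and fm_neg, n = 2 each) and from mice in which Gata3, the transcription factor on which ILC2s depend, is floxed (fm_pos_Gata3flox and fm_neg_Gata3flox, n = 3 each). A further 4 bulk libraries compared Gata3fl/flCreERT2 mice (Gata3KO_tamoxifen, n = 2) with wild types (WT_tamoxifen, n = 2). Both of these groups received 3 injections of 5 mg tamoxifen, and the wild-type mice carry no Cre. The single-cell libraries, 1 each, were of skin ILCs (sc_skin_ILC) and of ILCs from dorsal skin at day 0 and day 10 of depilation (sc_dorsal_day0 and sc_dorsal_day10). Separate or pooled animals are not told apart in the labels, so the spread behind each p-value may be technical, and the promoter that drives CreERT2 is not named there.

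Total counts per bulk library ranged from 14450612 to 44098274. Gata3 was detected in every bulk library, at 154 to 581 CPM (counts scaled to library size), including those labelled as floxed or knocked out. The defining ILC2 genes Il5 and Il1rl1 had counts in all 14 libraries. Transcripts of other skin cells were present in the bulk libraries. Summed over 10 fibroblast markers, the fm_neg libraries had 8599.5 and 6184 CPM, the fm_pos libraries 71.6 and 187, with 147 to 351 in fm_pos_Gata3flox and 421 to 1102 in fm_neg_Gata3flox. In the tamoxifen libraries the fibroblast sum was 3942 and 1054 CPM in WT_tamoxifen and 4261 and 3111 in Gata3KO_tamoxifen. The keratinocyte sum was 4868 and 2611 CPM in fm_neg and 425 to 778 in the other libraries. Markers of sensory neurons, which also make CGRP, summed to between 1.25 and 18.5 CPM. In bulk samples, fewer cells of a type and less RNA per cell cannot be told apart.

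The 5 members with sizeable counts differed widely in level, with Ramp3 first in every group. Levels between genes are given as CPM per kb of exon, since longer genes collect more reads. Ramp3 was the highest member in 14 of 14 libraries, at 385 to 1068 CPM per kb. Ramp1 was above its partner Calcrl in 14 of 14 libraries, at 37.1 to 143 CPM per kb against 0.887 to 9.95 for Calcrl. Among the ligand genes Calca was above Penk in 12 of 14 libraries, below it in 1 and equal to it in 1 at 3 digits (4.12 CPM per kb). In fm_neg the order was Ramp3 (750 ± 222 CPM per kb, SD, n = 2), Calca (192 ± 30.1), Penk (112 ± 33.7), Ramp1 (40.6 ± 1.25) and Calcrl (6.92 ± 4.28), and these neighbours did not overlap within 1 SD. In fm_pos Ramp3 (704 ± 247) was followed by Ramp1 (85.7 ± 33.7), Calca (81.5 ± 105), Calcrl (5.47 ± 3.45) and Penk (4.43 ± 6.18). There each neighbour below Ramp3 overlapped the next within 1 SD, Calca and Calcrl included. The receptor partners stood far above the receptor itself at the RNA level in every group. Nmur1 and Vipr2 were at 0 counts in 11 and 12 of 14 libraries.

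**Figure D1:**
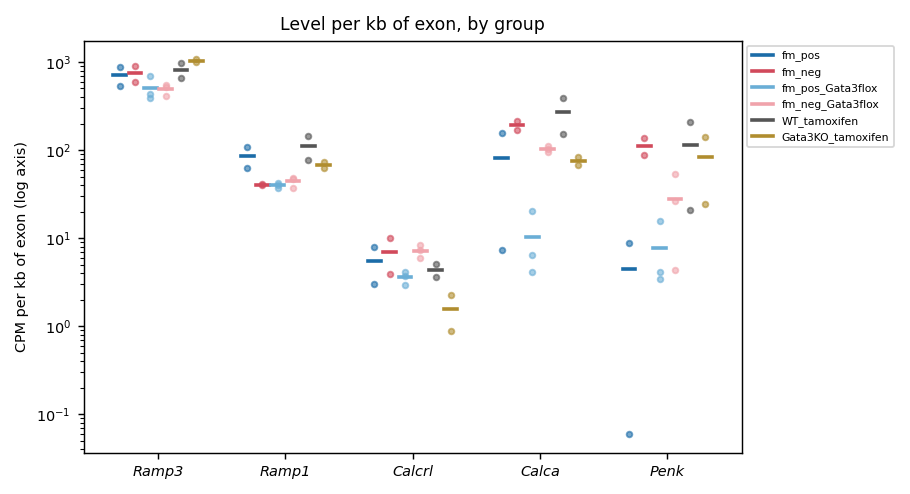
Level per kb of exon for 5 members in the 14 bulk libraries (vertical log axis, CPM per kb), with 1 point per library and a line at each group mean. Ramp3 lies between 385 and 1068 in all libraries, Calcrl between 0.887 and 9.95, and Calca and Penk spread most between groups.

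None of the 7 members passed the test in any of 6 bulk comparisons: edgeR's quasi-likelihood test called 0 of the 6 members tested (Vipr2 had too few counts) in each of 5 comparisons of the fate-map libraries. Between fm_pos and fm_neg the same test called 2.74% of all 17456 genes tested. It called 0.361% between fm_pos_Gata3flox and fm_neg_Gata3flox, 1.52% between fm_pos_Gata3flox and fm_pos, 1.33% between fm_neg_Gata3flox and fm_neg, and 1.01% for the difference between the reporter effects (Gata3flox minus intact). In the tamoxifen libraries it called 0 of 5 members tested and 0 of 13272 genes (0%). At an unadjusted p under 0.05 the counts of members were 2, 3, 2, 1 and 1 in the fate-map comparisons and 1 with tamoxifen, while 19.8%, 7.79%, 19.1%, 17.9%, 14.8% and 6.89% of all genes tested reached it. DESeq2 called 2 members (Penk and Ramp1), 1 (Calca), 2 (Calca and Ramp1), 0 and 1 (Ramp1) in the same order, and 1 (Calca) with tamoxifen. Counting only whether the libraries of 2 groups overlap, 3, 3, 1 and 4 members did not in the pairwise fate-map comparisons, beside 35%, 18.2%, 33% and 39.5% of all genes tested. The comparisons share libraries, so their values are not independent of one another.

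**Figure D2:**
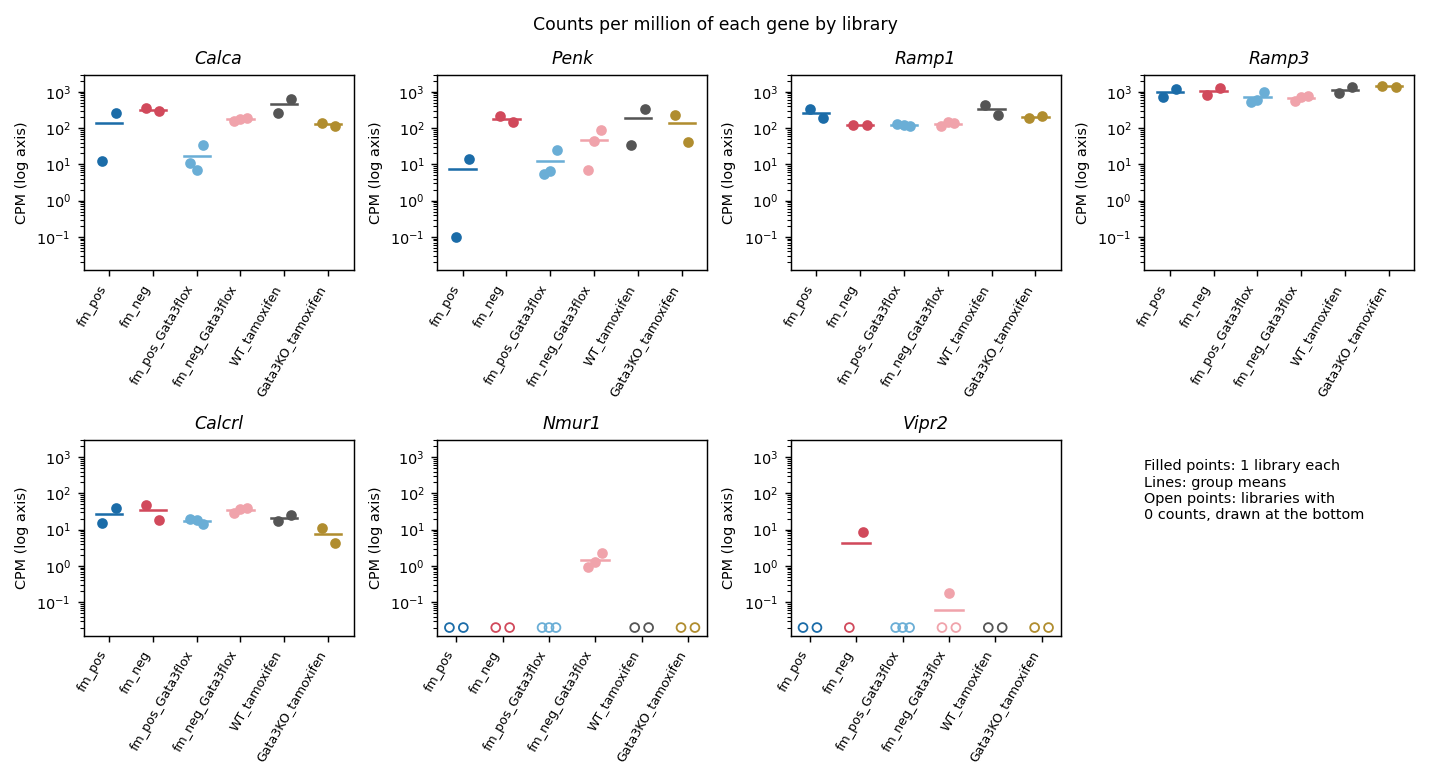
CPM of each member (log axis) in the 14 bulk libraries by group, with filled points for libraries, lines for group means and open points for libraries with 0 counts. The fm_pos replicates stand far apart for Calca (12.5 and 262 CPM) and Penk (0.0974 and 14.4 CPM), and Nmur1 has counts only in the 3 fm_neg_Gata3flox libraries.

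Calca (ENSMUSG00000030669, mm10 chromosome 7, 114631478 to 114636357, minus strand) was abundant in unmarked cells and scarce in most marked ones. It stood at 12.5 and 262 CPM in fm_pos and at 360 and 288 CPM in fm_neg. It stood at 10.9, 6.95 and 34.4 CPM in fm_pos_Gata3flox and at 158, 173 and 189 CPM in fm_neg_Gata3flox. Marked cells were below unmarked cells in both genotypes with no overlap, and the gap was wide in the floxed mice, while fm_pos replicate 2 reached nearly the level of fm_neg. The log2 fold change of fm_pos_Gata3flox against fm_neg_Gata3flox was −3.30 ± 0.92 (SE; 17.4 ± 14.8 against 173 ± 15.2 CPM, SD, n = 3 each), with an adjusted p of 0.272 (edgeR). It was called by DESeq2 (adjusted p = 0.0253), and by edgeR when only the libraries of these groups were fitted (adjusted p = 0.0262) or no filter on low counts was used (adjusted p = 8.18e-07). Over all alternatives that kept every library its adjusted p ran from 8.18e-07 to 0.679. In intact mice the change was −1.24 ± 1.05 (adjusted p = 0.569, edgeR).

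The contrast of floxed against intact marked cells rested on 1 library for Calca. Its log2 fold change was −2.97 ± 0.96 (17.4 ± 14.8 against 137 ± 176 CPM; edgeR adjusted p = 0.151), and DESeq2 called it (adjusted p = 0.0450). Without fm_pos replicate 1 it was −3.90 and passed edgeR's test (adjusted p = 0.0173), and without fm_pos replicate 2 it was 0.48, in the opposite direction. Without fm_pos replicate 2, Calca also passed the test between fm_pos and fm_neg, at −4.69 (edgeR adjusted p = 0.0240), and the difference between the reporter effects turned from −2.07 to 1.38. In these fits the lone fm_pos library is assumed to vary like the other groups. The floxed and intact unmarked cells differed by −0.90 ± 0.93 (edgeR adjusted p = 0.641).

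After tamoxifen, Calca stood at 256 and 648 CPM in WT_tamoxifen and at 142 and 114 CPM in Gata3KO_tamoxifen. Both knockout libraries were below both wild-type ones, which is true of 36.1% of all genes tested in one direction or the other. The log2 fold change was −1.82 ± 0.48 (128 ± 19.6 against 452 ± 278 CPM, SD, n = 2 each), with an adjusted p of 0.585 (edgeR) or 0.00214 (DESeq2). Of the 14 ILC2 markers 0 were called by edgeR with tamoxifen, and 12 had a log2 fold change below 0. The ILC2 cytokine gene Il5 stood at 552 and 810 CPM in Gata3KO_tamoxifen against 873 and 2238 CPM in WT_tamoxifen, while the chemokine receptor gene Ccr8 stood at 2419 and 3499 against 2210 and 2451 CPM. In the floxed reporter mice Il5 averaged 27.1 ± 19.1 CPM in marked and 899 ± 433 CPM in unmarked cells (log2 fold change −5.05 ± 0.79, edgeR adjusted p = 0.0346), and 4 of the 14 ILC2 markers fell there and 0 rose. The part of these cell markers in the Calca values was not tested. The genes most like Calca across the 10 fate-map libraries, by Pearson's r of log2 CPM among 7946 genes, were Adora2a, an adenosine receptor (r = 0.962, n = 10), Dgat2, an enzyme of triglyceride synthesis (0.962), and Spcs3, a subunit of the signal peptidase (0.956). This is a description over libraries that share groups and depth. Counts per gene do not separate the calcitonin transcript from the CGRP transcript.

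The start of Calca is shown because the study targeted the gene of a GATA factor and because Calca is known as a cyclic AMP-responsive gene. RefSeq promoter records (build GRCm38.p6) were found for 6 of the 7 members. The 250 bases before the start were searched on both strands for GATA-type sites (AGATA or TGATA, followed by A or G) and for TGACG, the core of the cyclic AMP response element. None of these motifs contains another. Capitals mark the matches, and a match describes letters only, not a bound site. In all, 26.5% of 32851 promoter windows of this length held a GATA-type match and 17.8% held the core. The window of Calca, at chr7:114636358-114636607 on the minus strand, read 5′ to 3′, holds 1 match of each kind: a GATA-type match on the opposite strand that begins 218 bases before the start, and a core 65 bases before it.
Calca: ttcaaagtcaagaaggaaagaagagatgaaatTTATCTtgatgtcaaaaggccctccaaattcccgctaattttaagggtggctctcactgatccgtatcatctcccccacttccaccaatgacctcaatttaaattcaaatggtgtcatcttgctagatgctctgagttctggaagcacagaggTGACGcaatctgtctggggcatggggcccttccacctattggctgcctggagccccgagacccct

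Penk (ENSMUSG00000045573, chromosome 4, 4133531 to 4138819, minus strand) had the widest range of any member in bulk. It stood at 0.0974 and 14.4 CPM in fm_pos, of which the first rests on 3 reads, and at 223 and 145 CPM in fm_neg. The groups did not overlap, and the log2 fold change was −4.66 ± 1.69 (7.24 ± 10.1 against 184 ± 55.1 CPM; edgeR adjusted p = 0.175). DESeq2 called it (adjusted p = 0.0379), as did edgeR without a filter on low counts (adjusted p = 6.56e-05). These were 2 of 8 alternatives other than leaving out 1 library, and the highest adjusted p among them was 0.449 (edgeR or DESeq2). Without fm_pos replicate 2 the change was −10.80. In the floxed mice Penk stood at 5.60, 6.73 and 25.5 CPM in marked cells and at 7.08, 43.3 and 87.2 CPM in unmarked cells, and these groups overlapped (−1.85 ± 1.22, edgeR adjusted p = 0.872). With tamoxifen it stood at 34.3 and 342 CPM in WT_tamoxifen and at 232 and 40.2 CPM in Gata3KO_tamoxifen, so each group held a high and a low library. The tamoxifen change was −0.47 ± 1.23 (edgeR adjusted p = 1), and it was 2.0 without WT_tamoxifen replicate 2 and 0.30 without Gata3KO_tamoxifen replicate 2. The floxed against intact change in marked cells, 0.80 ± 1.36, became −0.18 without fm_pos replicate 1 and −0.25 without fm_pos_Gata3flox replicate 3.

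Across the fate-map libraries Penk varied together with collagen genes. The genes most like it were the collagen chains Col1a2 (r = 0.976, n = 10) and Col1a1 (r = 0.970) and the secretory-pathway isomerase gene Ppic (r = 0.967). The fibroblast sum was lowest in fm_pos replicate 1 (71.6 CPM), where Penk was lowest, and highest in fm_neg replicate 1 (8599.5 CPM), where Penk was the highest of these 10 libraries. The tamoxifen libraries went both ways. WT_tamoxifen replicate 2 had the most Penk of all (342 CPM) with a fibroblast sum of 1054 CPM. WT_tamoxifen replicate 1 had 34.3 CPM with a sum of 3942. Gata3KO_tamoxifen replicate 1 had 232 CPM with a sum of 4261, and its replicate 2 had 40.2 CPM with a sum of 3111. The part of fibroblast RNA in the bulk Penk values was not tested. The fibroblast markers Dcn, Col3a1, Sparc and Dpt all passed edgeR's test between fm_pos and fm_neg, and Dcn averaged 71.0 ± 61.6 against 5300 ± 1228 CPM.

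**Figure D3:**
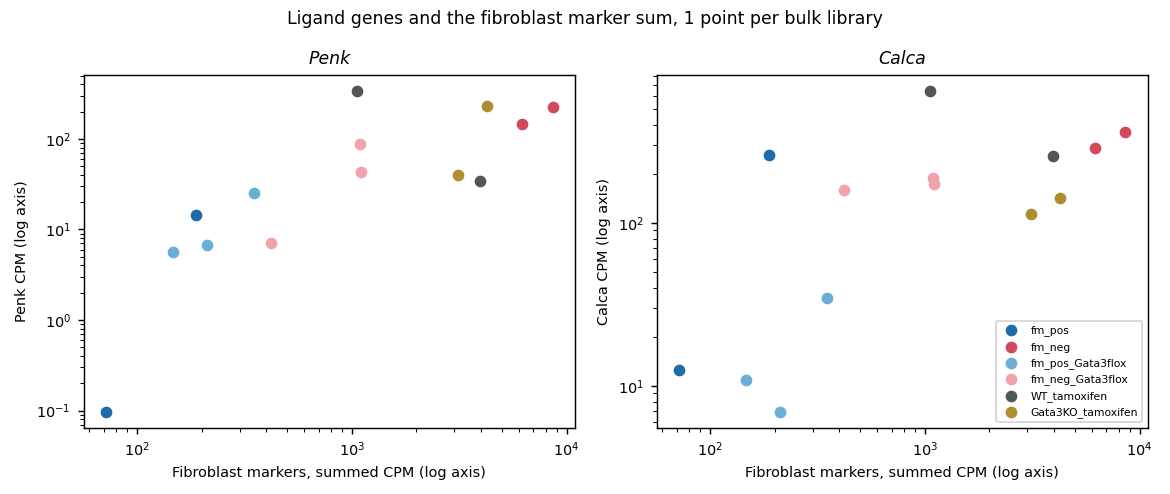
CPM of Penk and of Calca (vertical log axes) against the summed CPM of 10 fibroblast markers (horizontal log axis), with 1 point per bulk library coloured by group. Penk climbs with the fibroblast sum over the fate-map libraries, from 0.0974 CPM at a sum of 71.6 to 223 CPM at 8599.5, while the tamoxifen libraries are scattered.

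Ramp1 (ENSMUSG00000034353, chromosome 1, 91179822 to 91225196, plus strand), the partner that makes Calcrl a CGRP receptor, was highest among the fate-map groups in marked cells of intact mice. It stood at 331 and 187 CPM in fm_pos and at 120 and 125 CPM in fm_neg. In the floxed mice it stood at 129, 122 and 112 CPM in marked and 112, 145 and 142 CPM in unmarked cells. The fm_pos libraries were above all 8 others, and the other groups overlapped. The log2 fold change of fm_pos against fm_neg was 1.08 ± 0.26 (259 ± 102 against 123 ± 3.78 CPM; edgeR adjusted p = 0.0646), and that of fm_pos_Gata3flox against fm_pos was −1.10 ± 0.23 (121 ± 8.23 CPM in the former; adjusted p = 0.0533). The reporter effect in floxed mice was −0.14 ± 0.21, and the test of the difference between the reporter effects gave −1.22 ± 0.34 (edgeR adjusted p = 0.151).

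The first 2 of these Ramp1 adjusted p lay close to the threshold, and some alternatives moved all 3 past it. Of the alternatives other than leaving out 1 library, 2 of 8 called fm_pos against fm_neg (edgeR or DESeq2 adjusted p 0.00529 to 0.298). For floxed against intact marked cells 3 of 7 did (0.000408 to 0.157), and for the difference 2 of 6 (0.0232 to 0.303). DESeq2 called all 3, with adjusted p = 0.00529 for fm_pos against fm_neg, 0.000408 for floxed against intact marked cells and 0.0232 for the difference. Without a filter on low counts edgeR called all 3 as well (adjusted p = 0.00697, 0.00339 and 0.0361). Without fm_pos replicate 2, the lower fm_pos library, the 3 changes were 1.44, −1.46 and −1.58 in edgeR. Leaving out 1 library at a time kept their signs, at 0.61 to 1.44, −1.46 to −0.63 and −1.58 to −0.75. Where 1 fm_pos library was left, it is assumed to vary like the other groups. Fm_pos replicate 1 is also the library with the largest T cell marker sum, 2429 CPM against 1291 to 2124 in the remaining 9, and the largest sum of ILC3 and type 17 markers, 2681 CPM against 787 to 2578. Their part in the Ramp1 values was not tested. With tamoxifen, Ramp1 stood at 433 and 235 CPM in wild-type and 189 and 222 CPM in knockout libraries (−0.70 ± 0.34, edgeR adjusted p = 0.862). The genes most like Ramp1 over the fate-map libraries were Mir155hg, the host gene of miR-155 (r = 0.920, n = 10), the pyrophosphatase gene Ppa2 (0.915) and Cast, which encodes an inhibitor of calpain proteases (0.910). The Ramp1 window, shown for contrast with Calca, lies at chr1:91179572-91179821 on the plus strand and holds none of the motifs searched.
Ramp1: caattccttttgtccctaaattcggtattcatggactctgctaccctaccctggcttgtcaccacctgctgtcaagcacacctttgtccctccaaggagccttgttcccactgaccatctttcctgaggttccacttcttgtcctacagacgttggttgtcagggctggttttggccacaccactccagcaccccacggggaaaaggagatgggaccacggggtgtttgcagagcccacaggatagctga

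Ramp3 (ENSMUSG00000041046, chromosome 11, 6658521 to 6677475, plus strand), whose product directs Calcrl towards adrenomedullin, was high everywhere. The fm_pos libraries had 730 and 1212 CPM and the fm_neg libraries 819 and 1251. Among the floxed mice the marked cells had 531, 601 and 968 CPM and the unmarked cells 570, 712 and 756. It stood at 909 and 1333 CPM in WT_tamoxifen and 1474 and 1364 in Gata3KO_tamoxifen. Marked and unmarked cells overlapped in both genotypes, with log2 fold changes of −0.09 ± 0.34 and 0.04 ± 0.27. The floxed unmarked libraries lay below both intact unmarked ones (−0.61 ± 0.30, edgeR adjusted p = 0.319), and the knockout libraries above both wild-type ones (0.34 ± 0.24, edgeR adjusted p = 0.987). The genes most like Ramp3 were Arf1, a small GTPase of vesicle traffic (r = 0.969, n = 10), the precursor-cleaving protease gene Furin (0.956) and the actin regulator gene Wdr1 (0.955). An overlapping gene model, Gm11978, had at most 53 reads in a library.

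Calcrl (ENSMUSG00000059588, chromosome 2, 84330626 to 84425411, minus strand), the receptor shared by CGRP and adrenomedullin, was low. The fm_pos libraries had 14.8 and 38.6 CPM and the fm_neg libraries 48.6 and 19. Among the floxed mice the marked cells had 20.2, 18 and 14.5 CPM and the unmarked cells 28.7, 36.2 and 40.5. The floxed marked libraries were all below the floxed unmarked ones (log2 fold change −1.0 ± 0.44, edgeR adjusted p = 0.629), as is true of 18.2% of all genes in either direction, and the intact groups overlapped (−0.34 ± 0.54). With tamoxifen it stood at 17.5 and 24.7 CPM in wild-type and 11.1 and 4.33 CPM in knockout libraries (−1.44 ± 0.69, edgeR adjusted p = 0.854). In the tamoxifen mice Calca, Ramp1 and Calcrl were each lower in both knockout libraries than in both wild-type ones and Ramp3 was higher, which makes 4 of 5 tested members without overlap beside 36.1% of all genes. The genes most like Calcrl were the nucleosome-binding gene Hmgn1 (r = 0.976, n = 10), the mitochondrial gene Mtx1 (0.927) and the ubiquitin ligase gene Mylip (0.905).

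**Figure D4:**
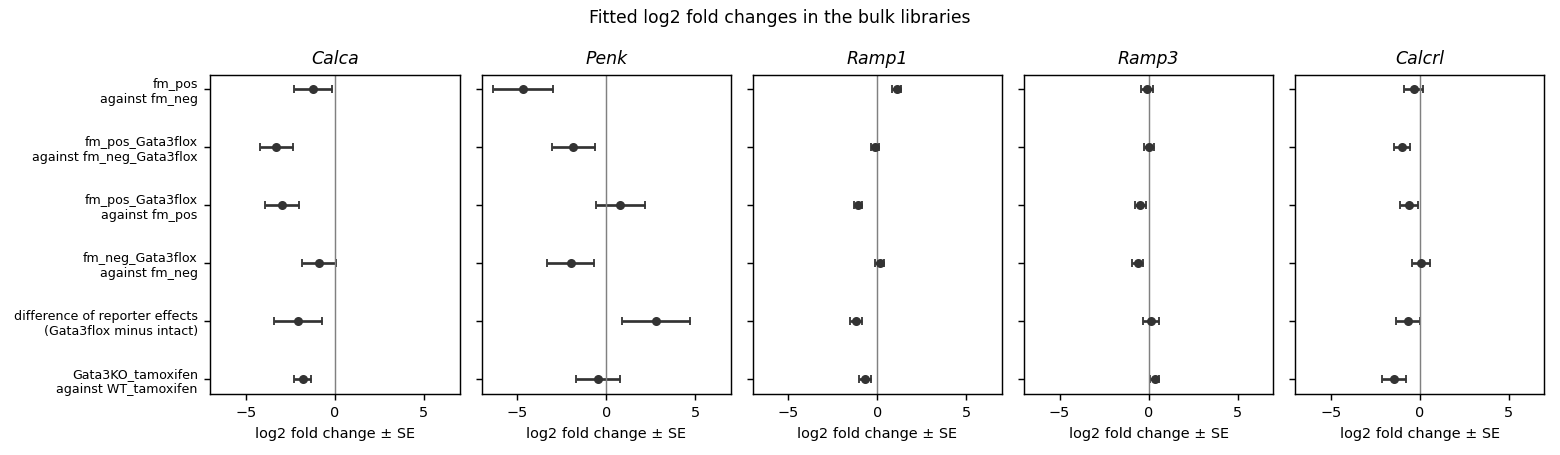
Fitted log2 fold change (horizontal axis, point ± SE) of 5 members in the 6 bulk comparisons. Calca lies below 0 in all 6, Penk has the widest errors, Ramp1 has the narrow estimates of 1.08 and −1.10 that involve fm_pos, and Ramp3 stays within 0.61 of 0.

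Nmur1 (ENSMUSG00000026237, chromosome 1, 86386303 to 86426228, minus strand) was close to absent in bulk. It had 18, 28 and 37 reads in the fm_neg_Gata3flox libraries (0.911, 1.29 and 2.22 CPM) and 0 reads in the other 11. Against a floor of 3 counts over a group, fm_pos_Gata3flox was at least 44.9-fold lower than fm_neg_Gata3flox (edgeR adjusted p = 0.363), and fm_neg_Gata3flox at least 17.4-fold higher than fm_neg (edgeR adjusted p = 0.210). These bounds cover counting error only. The level in fm_neg_Gata3flox, 1.47 ± 0.674 CPM, is low, and a count of 0 still allows between 0.0695 and 0.209 CPM in the other libraries, depending on their depth. The genes most like Nmur1, on the 3 libraries that have it, were B4galt5 (r = 0.936, n = 10), Jag1 (0.924) and Eef1b2 (0.916). Nmur1 has 2 RefSeq starts, both shown because each holds 1 GATA-type match and no core, at chr1:86389362-86389611 and chr1:86388142-86388391 on the minus strand.
Nmur1 start 1: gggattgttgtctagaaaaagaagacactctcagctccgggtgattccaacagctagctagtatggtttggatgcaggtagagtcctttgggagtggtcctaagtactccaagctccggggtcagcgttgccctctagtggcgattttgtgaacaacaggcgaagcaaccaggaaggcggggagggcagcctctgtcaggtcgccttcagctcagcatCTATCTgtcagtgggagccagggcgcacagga
Nmur1 start 2: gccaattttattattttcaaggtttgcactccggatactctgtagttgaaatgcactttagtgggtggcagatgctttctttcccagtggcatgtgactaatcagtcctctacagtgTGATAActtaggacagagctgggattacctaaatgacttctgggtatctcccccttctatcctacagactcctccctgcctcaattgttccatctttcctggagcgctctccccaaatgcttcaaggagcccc

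The match lies 32 bases before the first Nmur1 start, on the opposite strand, and 133 bases before the second, on the strand of the gene. With Calca these make 2 of the 6 members with a promoter record that hold a GATA-type match, beside 26.5% of all windows. Vipr2 (ENSMUSG00000011171, chromosome 12, 116077726 to 116146261, plus strand) had 123 reads in fm_neg replicate 2 (8.55 CPM), 4 in fm_neg_Gata3flox replicate 2 and 0 in the other 12 libraries. Fm_neg replicate 2 is also the library with the largest endothelial marker sum, 168 CPM against 5.51 to 76.7 in the others. In that library the lymphatic marker Lyve1 had 108 CPM, Pecam1 26.3, Egfl7 18.7, Esam 9.53, Tie1 6.47 and Cdh5 0.139. Kdr, Tek, Emcn and Flt1 were at 0 there. The part of endothelial RNA in its Vipr2 reads was not tested.

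The other genes of the neuropeptide system are given by their lists. Of 27 other ligand genes 10 had 0 counts in all 14 bulk libraries, and 8 had enough counts for the fate-map fit. Adm, the gene of adrenomedullin, was the one ligand called: it fell in fm_pos (25.5 ± 5.6 against 107 ± 65.9 CPM in fm_neg; log2 fold change −2.06 ± 0.42, edgeR adjusted p = 0.0331). Vip, Adcyap1 and Nms had 0 counts in all 14 bulk libraries, Nmu had at most 8 in a library, and Calcb, which encodes the second form of CGRP, at most 129. Of 38 other receptor genes 16 had 0 counts in all libraries and 7 were tested. Ramp2, the third partner of Calcrl, fell in fm_pos, where it had 1 read against 721 in fm_neg (19.2 ± 3.6 CPM), a ratio of 1393 (249 to 55095, 95% counting interval; edgeR adjusted p = 0.0121). The melanocortin receptor gene Mc5r fell as well, from 783 reads in fm_neg to 0, at least 504-fold (edgeR adjusted p = 0.0260). None of the ligands or receptors outside the members passed edgeR's test in the other 5 comparisons. The opioid receptor genes Oprd1 and Oprk1 had 0 counts in all 14 bulk libraries, and Oprm1 had at most 11. In the skin single-cell library Oprd1 had 1 count and Oprk1 and Oprm1 had 2 each. The calcitonin receptor gene Calcr had 0 counts in all 14 bulk libraries and 1 count in the skin single-cell library. In that library Mc5r had 381 counts, Adm 186 and Ramp2 2. Keratinocyte and fibroblast markers were also higher in fm_neg, as given above. Mc5r averaged 20 CPM in fm_neg and 35.9 CPM in fm_neg_Gata3flox, where both marker sums were lower. The part of these markers in Adm, Ramp2 and Mc5r was not tested.

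Of 18 genes that process or break down peptides 14 were tested, and 1 was called between fm_pos and fm_neg, beside 2.74% of all genes tested. In that comparison 10 of the 14 had a log2 fold change below 0, and 11 of 14 did between fm_neg_Gata3flox and fm_neg, beside 8501 and 8085 of all 17456 genes. Furin averaged 128 to 328 CPM over the groups. Pcsk1, a convertase of prohormones, averaged 1.85 to 20 CPM, and Pam, which amidates CGRP, 5.74 to 29.1. The peptidase gene Dpp4 fell in fm_pos (0 reads against 407 in fm_neg, at least 262-fold, edgeR adjusted p = 0.0185) and was at least 67.8-fold higher in fm_pos_Gata3flox than in fm_pos (272 reads, edgeR adjusted p = 0.0372). For Dpp4 the reporter effects differed between the genotypes (edgeR adjusted p = 0.0362). All 29 genes of G protein and cyclic AMP signalling were tested, and 1 passed in any fate-map comparison: the phosphodiesterase gene Pde7a rose in fm_neg_Gata3flox (145 ± 31.6 against 52.8 ± 12.4 CPM in fm_neg; log2 fold change 1.45 ± 0.25, edgeR adjusted p = 0.0354). The median log2 fold change of these 29 between fm_pos and fm_neg was −0.11, beside 0 for all genes tested. Among 12 cyclic AMP-responsive and immediate early genes, Egr1 (59.7 ± 14.9 against 411 ± 266 CPM, log2 fold change −2.78 ± 0.49, edgeR adjusted p = 0.0202) and Nr4a2 (466 ± 135 against 929 ± 44.6 CPM, −1.0 ± 0.21, adjusted p = 0.0362) fell in fm_pos and 0 rose, which is 2 of 12 beside 2.74% of all genes tested. Egr1 fell in fm_neg_Gata3flox against fm_neg too (38.3 ± 12.5 CPM, −3.42 ± 0.43, edgeR adjusted p = 0.0122), and its reporter effects differed between the genotypes (3.36 ± 0.61, adjusted p = 0.0388). Of 19 receptors for other neurotransmitters 6 were tested and 0 were called by edgeR. None of these lists had a called gene with tamoxifen.

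Single cells showed which cells held the members. After filtering, the skin library had 4103 cells with a median of 2358 counts, the day 0 library 553 cells with 1984 and the day 10 library 443 cells with 1811. The dorsal files do not list Nmur1, and 4 cell barcodes occurred in both the skin and the day 0 library. With 1 library per condition there is no test between conditions, and intervals are 95% and cover counting error only. Ramp3 was again the most widespread member, with a count in 67.1% of skin cells (1334 CPM, 1312 to 1357), 71.2% of day 0 cells (1755 CPM, 1680 to 1833) and 62.8% of day 10 cells (1127 CPM, 1057 to 1200). Calca had a count in 16.8%, 21.5% and 35.0% of cells. Ramp1 had one in 11.3%, 17% and 7.45%, and Calcrl in 8.43%, 10.5% and 11.7%. These shares depend on depth. With each cell thinned to 1000 counts they were 52.7%, 62.0% and 51.0% for Ramp3 and 9.81%, 17.1% and 28.4% for Calca. Those of Ramp1 were then 5.34%, 9.83% and 3.16%, and those of Calcrl 4.17%, 6.17% and 7.04%. Penk was found in few cells, 35 in the skin library (0.853%), 1 at day 0 and 15 at day 10 (3.39%). Nmur1 had 4 counts in 4 skin cells, and Vipr2 8, 12 and 2 counts in the 3 libraries. By CPM, Ramp3 and then Calca stood above Ramp1 and Calcrl in the 3 libraries. In bulk, mean Calca CPM was above that of Ramp1 in fm_neg, fm_neg_Gata3flox and WT_tamoxifen. It was below that of Ramp1 in fm_pos, fm_pos_Gata3flox and Gata3KO_tamoxifen. Ramp1 was above Calcrl in skin (59.5 against 45.8 CPM) and at day 0 (113 against 68.3). At day 10 it was below Calcrl (46.4 against 95.1 CPM), unlike in bulk. Penk was below all of these in skin and at day 0 (18.7 and 0.854 CPM) and above Ramp1 and Calcrl at day 10 (137 CPM). Counts per cell were not scaled to gene length.

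Between day 0 and day 10 after hair removal the ligands were higher and the receptor partners lower at day 10. Calca stood at 522 CPM at day 0 and 777 at day 10, a ratio of 1.49 (1.33 to 1.66). Penk went from 1 count to 118, a ratio of 160 (28.2 to 6381), and its 10 richest cells held 94.9% of the day 10 counts. Ramp1 went from 113 to 46.4 CPM, a ratio of 0.411 (0.281 to 0.590), and Ramp3 from 1755 to 1127 CPM, a ratio of 0.642 (0.594 to 0.693). Calcrl had a ratio of 1.39 (1.01 to 1.92), on 80 and 82 counts of which 15 at day 10 came from 1 cell, and Vipr2 one of 0.226 (0.0246 to 1.02). Of the 5 members with at least 20 counts over both days, 2 (Penk and Ramp1) were past 2-fold, beside 6.11% of 7803 genes. These ratios compare the libraries, not the days.

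The dorsal cells fell into 3 clusters, found without the members or the other genes of their pathway lists. Cluster 2 (296 cells), led by Il1rl1, Il5, Areg, Il2ra and Il13, is called ILC2-like. Cluster 0 (568 cells), led by 5830411N06Rik, the reporter transcript tdtomato and Cx3cr1, and cluster 1 (132 cells), led by the heat-shock genes Hspa1a and Hspa1b, were left unnamed. ILC2 markers summed to 18931 CPM in cluster 2, 11344 in cluster 0 and 8448 in cluster 1, the largest marker sum in each. The name therefore marks the cluster richest in them, not the only one that has them. Calca had a count in 42.2% (36.5 to 48.1) of ILC2-like cells, 23.6% (20.2 to 27.3) of cluster 0 and 11.4% (6.50 to 18.0) of cluster 1, at 941, 528 and 227 CPM. Of all dorsal Penk counts 92.4% lay in ILC2-like cells. Calca counts were split, with 48.0% in ILC2-like cells and 48.3% in the larger cluster 0. Ramp1 had the opposite distribution to Penk. Cluster 0 held 80.2% of the Ramp1 counts (118 CPM, 98.8 to 139), and ILC2-like cells had 24.5 CPM (14.0 to 39.8). Ramp3 was found in 73.8% of cluster 0 and 75% of ILC2-like cells but in 23.5% of cluster 1, where median depth was lower (1416 counts against 1924 and 2085). With each cell thinned to 1000 counts the shares of Calca were 32.1%, 19.0% and 10.6% in the same order. Those of Ramp3 were then 61.7%, 62.5% and 18.6% in clusters 0, 2 and 1. Finer clustering (Leiden resolution 1) gave a cluster of 168 cells with the highest Ramp1 (149 CPM) and Calca in 41.1% of cells (1040 CPM). Another, of 221 cells, had 84.0% of Penk counts, Ramp1 at 25.9 CPM and Calca in 41.2% of cells (897 CPM). The contrast with Ramp1 thus held for Penk at either resolution, but for Calca only at the main one.

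Within the ILC2-like cells the day ratios of Calca and Ramp3 were 1.24 (1.05 to 1.47) and 0.702 (0.615 to 0.801), and Penk went from 1 count in 111 cells to 109 counts in 185 cells. Ramp1 had 8 counts on each day there, a ratio of 0.697 (0.228 to 2.13), an interval that includes no change. In cluster 0 the ratios were 1.30 (1.10 to 1.53) for Calca, 0.490 (0.309 to 0.752) for Ramp1 and 0.609 (0.548 to 0.675) for Ramp3. In cluster 1 Ramp3 had a ratio of 1.41 (0.884 to 2.24). Cells with a tdtomato count had a Calca count in 11.5% of cases at day 0 (113 cells) and 14.3% at day 10 (28 cells), against 24.1% and 36.4% of cells without one, although they were deeper (median 2321 against 1896 and 2020 against 1786 counts). Their Ramp1 shares were 20.4% against 16.1% at day 0 and 17.9% against 6.75% at day 10. At day 10 the shares of the tdtomato cells rest on 5 cells for Ramp1 and 4 for Calca. A cell without a tdtomato count is not shown to be unmarked.

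The skin cells fell into 5 clusters, found the same way and left unnamed. Cluster 3 (2201 cells), led by Tnfrsf9, Il5, Jcad and Dgat2, held 86.6% of the Calca counts and 98.4% of the Penk counts, with a Calca count in 23.4% (21.7 to 25.3) of its cells and a Ramp3 count in 84.9%. Dgat2 was also among the genes most like Calca in bulk. Cluster 0 (54 cells) was led by myeloid and B cell genes (Lyz2, Csf1r, Cd79a), though its ILC2 markers still summed to 3496 CPM. There Calca had a count in 5.56% (1.16 to 15.4) of cells and Ramp3 in 38.9% (25.9 to 53.1). The median was 2768 counts, close to the 2747 of cluster 3. With 54 cells these intervals are wide, so a share inside them is not shown to be background. In cluster 1 (769 cells, heat-shock genes) Calca (6.50%) and Ramp3 (26.7%) lay within those wide intervals, at a lower median of 1574 counts. Cluster 2 (933 cells, led by Nfkbid and Tnfsf9) had Ramp3 in 57.9% and Calca in 11.3%, and the latter lay within the wide interval of cluster 0. Cluster 4 (146 cells), led by Blk, Cd3e, Il17f and Trac, had the highest share of Ramp1, 21.9% (15.5 to 29.5), and the lowest of Calcrl, 1.37% (0.166 to 4.86).

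**Figure D5:**
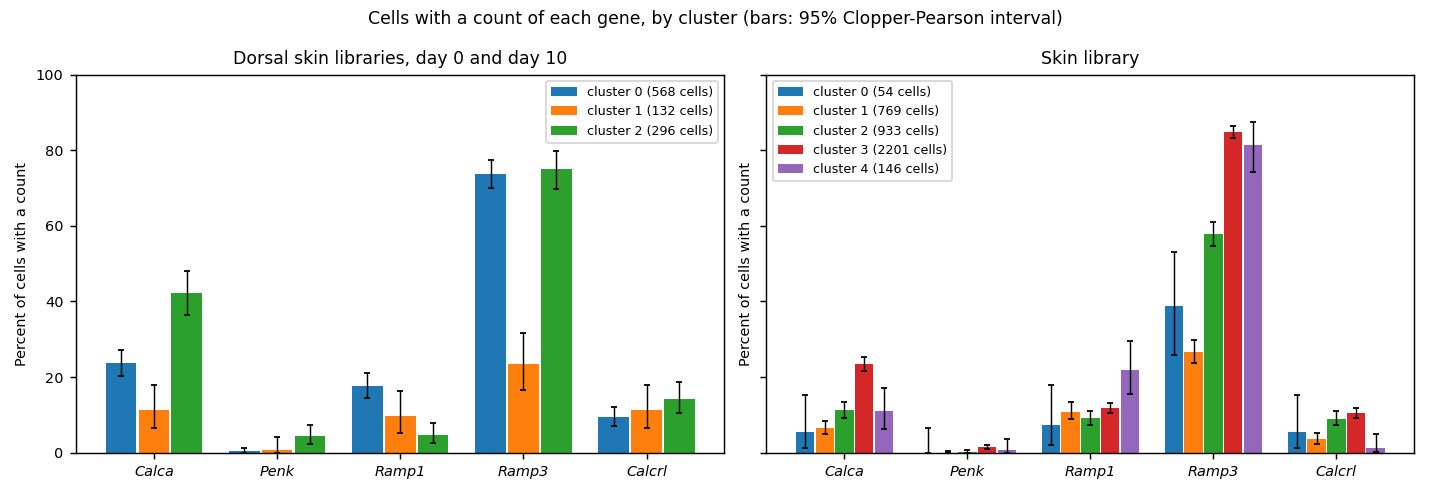
Percent of cells with a count of 5 members (vertical axis) in the 3 dorsal clusters and the 5 skin clusters, with bars for the share and whiskers for the exact Clopper-Pearson 95% interval. Calca is found in 42.2% of dorsal cluster 2 and 23.4% of skin cluster 3, and Ramp3 in 73.8% to 84.9% of the cells of 4 clusters.

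Receptor and partner transcripts were counted together in single cells. These gene pairs were chosen after their values were seen. Of 346 skin cells with a Calcrl count, 274 also had a Ramp1 or Ramp3 count, and the numbers were 49 of 58 at day 0 and 38 of 52 at day 10. Ramp3 had a count in 74.6%, 79.3% and 73.1% of Calcrl cells, and in 66.4%, 70.3% and 61.4% of the other cells, which had fewer counts per cell. Ramp1, the partner for CGRP, had one in 13.9%, 19% and 3.85% of Calcrl cells and in 11.1%, 16.8% and 7.93% of the others. In the myeloid and B cell cluster of the skin library Calcrl had a count in 3 of 54 cells, 5.56% (1.16 to 15.4). That interval holds its share in all 3 libraries, but it is too wide to set a background. Skin clusters 4 and 1 had lower Calcrl shares, 1.37% and 3.64%, and no dorsal cluster was led by myeloid or B cell genes. Whether these pairs are expressed in the same cell was therefore not tested. Calca cells held Il5 more often than other cells, 53.0% against 32.4% in skin, 63.9% against 40.8% at day 0 and 62.6% against 39.2% at day 10. Il13, another ILC2 cytokine gene, was found in 28.4% against 22.6%, 26.1% against 29.3% and 48.4% against 36.8%, lower in the Calca cells at day 0. The median depths were 2775 against 2270 counts in skin, 2010 against 1958 at day 0 and 2091 against 1757 at day 10.

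Penk was also set beside cell markers in single cells. A count of Dcn or Col1a1 occurred in 0 of 35 Penk cells in skin, 0 of 1 at day 0 and 0 of 15 at day 10, and over the 10 fibroblast markers in 0, 1 and 1 of them. In the other cells a fibroblast marker occurred in 1.33%, 2.9% and 2.34%. All 35, 1 and 15 had a count of an ILC2 marker, as did 98.5%, 99.3% and 99.3% of the other cells, and 29, 1 and 11 had a Gata3 count. The ILC2 markers summed to 11622 CPM in Penk cells and 10389 CPM in the others in skin, and to 19287 and 12899 CPM at day 10. Other marker lists went both ways in skin. Mast cell and basophil markers were found in 71.4% of Penk cells against 46.1% of the others, and B cell markers in 0% against 1.47%. The mast cell list includes Kit, its only marker with counts in every bulk library, and its genes were not counted separately here. Median depth was 3278 against 2355 counts in skin and 1581 against 1811 at day 10. Of the 15 Penk cells at day 10, 11 also had Calca. In skin the 10 richest Penk cells held 83.3% of its counts, and 1 cell held 47 counts.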

How the data were processed

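Skin ILC RNA was measured in 14 bulk and 3 single-cell libraries. Per the submitters' processing notes, the authors used HISAT2 2.1.0, featureCounts and Subread with mm10. The deposited values are raw counts per gene, and per gene and cell. The single-cell platform is not given in the sources used here. Bulk counts were fitted in R 4.3.3 with edgeR 4.0.16 (filterByExpr, TMM factors, quasi-likelihood test, Benjamini-Hochberg adjustment over all genes, called under 0.05), with 1 model for the 10 fate-map and 1 for the 4 tamoxifen libraries, and the procedure was tested on simulated data. CPM are scaled by TMM, except summed marker CPM. DESeq2 1.42.0 was an alternative. Exons of Penk and Ramp3 overlap another gene model each.

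Left out were cells holding fewer than 200 genes or above 10% of mitochondrial counts (the dorsal files list 0 mitochondrial genes) and predicted doublets: 3 in skin, where the caller has not worked, and 11 in each dorsal library. Clustering used scanpy 1.11.5, 2000 variable genes, 30 components, 15 neighbours and Leiden resolution 0.5, without members and pathway lists.

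The members, gene lists, gene pairs and alternatives were chosen with earlier results of these data known. Named were all members, at most 3 called genes per list and comparison with the smallest p, and the 3 genes most like each member; others (named by role or as leading cluster genes) were chosen after their values were seen. Alternatives were other normalization, filters, libraries, lane, replicate block, doublets, cell filter, thinning and resolution. Any gene driving the mark is not reported here.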

Additional observations from a re-analysis of the deposited data

How the results depend on the processing

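The count of members called depended on the tool. DESeq2 gave 2 members between fm_pos and fm_neg, 1 between the floxed groups, 2 for floxed against intact marked cells, 1 for the difference of the reporter effects and 1 with tamoxifen, and edgeR without a filter gave 2, 1, 2, 1 and 0. A mean CPM of at least 5 gave 1 for floxed against intact marked cells, and fitting only the groups compared gave 1 between the floxed groups. Leaving out 1 library gave 0 to 3 members between fm_pos and fm_neg, 0 to 1 for floxed against intact marked cells, 0 to 1 for the difference and 0 elsewhere. The labels do not say whether same-numbered libraries share mice. Departures of such libraries from their group means correlated at 0 to 0.139, and 2 or 3 libraries per group are too few to settle it. The fit with the replicate block called 0 members everywhere and 126 genes between fm_pos and fm_neg against 478 without it. Counts over all genes moved more: DESeq2 called 2611, 529, 2391, 2056, 1475 and 230 genes in the 6 comparisons against 478, 63, 266, 233, 176 and 0. Without a filter edgeR called 1324, 321, 974, 893, 773 and 6, and 444, 113, 354, 425, 211 and 0 for genes whose mean reached 5 CPM. With lane as a covariate edgeR called 250, 10, 133, 77 and 73 in the fate-map comparisons. Lane here is an L token in the deposited names, not in the labels. It was L2 for all marked libraries and L1 or L2 for unmarked ones, so it partly went with the reporter. With the replicate block edgeR called 126, 31, 131, 83, 26 and 0, and with only the groups compared 29, 233, 0 and 367 in the 4 pairwise ones. Leaving out 1 library gave 514 to 877, 2 to 27, 66 to 489, 5 to 190, 54 to 504 and 0 to 0. Signs turned for small changes: the floxed against intact change of Calcrl in unmarked cells was −0.02 under DESeq2 and under RLE factors, and the fm_pos against fm_neg change of Ramp3 was 0.02 with lane as a covariate and 0.52 when set against fm_neg_Gata3flox instead (added after seeing the data). Leaving out 1 library at a time gave these ranges of log2 fold change where a sign turned. For fm_pos against fm_neg, Ramp3 ran from −0.50 to 0.25 and Calcrl from −1.19 to 0.50. For fm_pos_Gata3flox against fm_pos, Calca ran from −3.96 to 0.48, Penk from −0.25 to 6.95 and Calcrl from −1.14 to 0.24. For the difference of the reporter effects, Calca ran from −3.01 to 1.38, Ramp3 from −0.21 to 0.54 and Calcrl from −1.50 to 0.18. For fm_neg_Gata3flox against fm_neg Calcrl ran from −0.47 to 0.89, for the floxed reporter groups Ramp3 from −0.27 to 0.21, and with tamoxifen Penk from −2.23 to 2.0. The causes were not tested.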
